A study of Rattus norvegicus with 15 samples.

Results

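The 5 miRNAs described here, miR-196a, miR-196b, miR-196c, miR-10a-5p and miR-10b, are encoded inside the Hox gene clusters of the rat. They were taken from the 350 miRNAs of a rat miRNA array by name. The members were chosen by measured values of these arrays: the signal of the 3 miR-196 members was high in carbohydrate-fed livers at 1 h and 6 h after surgery, and miR-10 was set beside them as the other Hox-embedded family. The carbohydrate-fed values at 1 h and 6 h are therefore a description, with no test. All 5 members were among the 134 miRNAs detected on enough arrays to be tested, and 12 probes measured them, 8 for miR-196 and 4 for miR-10.

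The study measured rat liver on 15 single-colour (Cy3) arrays, each loaded with total RNA pooled from 4 animals. Rats had received a long-term ethanol diet (EtOH) or, as pair-fed controls, a carbohydrate diet (CHO), and all underwent partial hepatectomy (PHx), the surgical removal of part of the liver. Liver was taken at PHx and again 1, 6, 12 or 24 h after it, was frozen between clamps cooled in liquid nitrogen, and its RNA was extracted with Trizol. There were 3 EtOH pools and 4 CHO pools before PHx, and 1 pool of each diet at each of the 4 times after it. No strain, sex, age or unoperated control was given in the sources used here. By the animal identifiers in the labels, 7 of the 8 pools had arrays before and after PHx from the same 4 animals. The array before PHx of the EtOH 24 h animals was not analysed here. The 1 h and 6 h pools of each diet shared 1 animal. Liver tissue was measured in bulk, so a change in the number of cells of a type and a change in RNA per cell cannot be told apart.

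Hox genes encode homeodomain transcription factors that give cells their position along the body axis, and they lie in clusters whose intergenic stretches also encode miRNAs. The seed of a miRNA, its bases 2 to 8, is the stretch that pairs with target messages. In the mouse, miR-196 pairs almost fully with the message of Hoxb8 and directs its cleavage. MiR-10 is among the oldest miRNA families of animals, is related by sequence to miR-99, miR-100 and miR-125, and is found in many adult tissues. After PHx the remaining hepatocytes, normally resting, re-enter the cell cycle.

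The mature sequences are shown because the 3 miR-196 members moved together and differ by a single base, which bears on how far an array can separate them. They are RefSeq's on the rat assembly GRCr8, are written 5′ to 3′, and carry the seed in capitals.
miR-196a: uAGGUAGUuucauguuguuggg
miR-196b: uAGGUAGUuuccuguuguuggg
miR-196c: uAGGUAGUuucguguuguuggg
miR-10a-5p: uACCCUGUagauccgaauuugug
miR-10b: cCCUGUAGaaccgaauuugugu
miR-10b window: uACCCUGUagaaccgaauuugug
Counting positions from 1 at the 5′ end, miR-196a and miR-196b differ by A12C, miR-196a and miR-196c by A12G, and miR-196b and miR-196c by C12G, with no other difference over 22 bases. All 3 have the seed AGGUAGU, which no other of RefSeq's 724 rat mature miRNAs has. RefSeq starts miR-10b 2 bases further into its hairpin than miR-10a-5p, so their annotated seeds differ. The last line gives the stretch of the miR-10b hairpin that starts where miR-10a-5p does. Over those 23 bases the only difference from miR-10a-5p is U12A, outside the seed. Probe sequences were not used here, and cross-hybridisation between members of a family cannot be told apart from a shared change.

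The 5 members come from all 4 Hox clusters. MiR-196a lies at chr7:135988900-135988921 on the plus strand, between Hoxc10 and Hoxc9. MiR-196b lies at chr4:82661149-82661170 on the minus strand, between Hoxa9 and Hoxa10. MiR-196c and miR-10a-5p share the Hoxb cluster, with miR-196c at chr10:81727561-81727582, between Hoxb13 and Hoxb9, and miR-10a-5p at chr10:81779730-81779752, between Hoxb5 and Hoxb4, both on the plus strand. MiR-10b lies at chr3:80035886-80035907 on the plus strand, within the annotated span of Hoxd4.

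Values are spot signals scaled so that each array had the same 75th percentile over 185 probes detected on every array. Between 108 and 131 miRNAs were detected per array, and the 75th percentile before scaling lay between 236.5 and 515.5. It was lowest on EtOH before PHx replicate 3, where the spots of miR-10a-5p had an SD of 47.7, against 4.25 to 16.3 on the other arrays. The hepatocyte miRNA miR-122 was detected on every array, with 33467 to 39202 in EtOH livers and 33552 to 40386 in CHO livers before PHx. Levels are compared between arrays for a given miRNA and not between miRNAs, whose probes differ.

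All 3 miR-196 members were highest on the CHO 6 h array and second highest on the CHO 1 h array of the 15 arrays. For miR-196c, the CHO 1 h array had a scaled signal of 68.9 and the CHO 6 h array 89.5, against 37.2, 40.9, 25.7 and 13.7 on the 4 CHO arrays before PHx. For miR-196a, the CHO 1 h array had 49.6 and the CHO 6 h array 63.8, against 25.5, 27.7, 22.8 and 12.8 on the CHO arrays before PHx. For miR-196b, the CHO 1 h array had 31.7 and the CHO 6 h array 34.9, against 14.6, 17.02, 11.8 and 6.59 on the CHO arrays before PHx. Both early arrays lay above all 4 CHO arrays before PHx for all 3 members. Of the 134 tested miRNAs, 20.9% did so at 1 h and 27.6% at 6 h.

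Relative to the CHO mean before PHx, miR-196c was 2.55-fold higher at 1 h and 3.31-fold higher at 6 h. MiR-196a was 2.33-fold higher at 1 h and 2.99-fold higher at 6 h, and miR-196b was 2.44-fold higher at 1 h and 2.70-fold higher at 6 h. These were the 3 largest differences among the 134 tested miRNAs at both times. The next was miR-466b at 1 h, with a log2 difference of 0.55, and miR-872 at 6 h, with 0.85. At least 1.5-fold above the CHO mean before PHx were 3 miRNAs at 1 h (2.24%), which were the miR-196 members, and 9 at 6 h (6.72%), which included them. In the authors' deposited values the miR-196 members held ranks 3 to 5 at 1 h, and 2, 3 and 5 at 6 h.

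The mean before PHx includes animals other than those sampled after it. Against the array before PHx of the same 4 animals, the fold was smaller. It was 1.95 for miR-196a, 2.17 for miR-196b and 1.85 for miR-196c at 1 h, and 2.30, 2.05 and 2.19 for the same members at 6 h. All 8 miR-196 probes lay above all 4 CHO arrays before PHx at both times. So did 3 of the 4 miR-10 probes, 1 of which was not detected on any array. This count alone does not set the families apart, and the share over all probes is not given here. Of the miR-196 probes, 1 miR-196b probe was detected on 2 arrays alone, CHO 1 h and CHO 6 h. The other 7 miR-196 probes had folds over the same pool of 1.80 to 2.17 at 1 h and 1.99 to 2.30 at 6 h. With 1 pool at each time and 1 animal in both pools, these values have no replicate check.

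On the same arrays miR-10 was close to its level before PHx. MiR-10a-5p, encoded in the same Hoxb cluster as miR-196c, had 156.6 at CHO 1 h and 155.0 at CHO 6 h, against 150.1, 149.3, 141.1 and 150.1 on the CHO arrays before PHx. MiR-10b had 38.6 at CHO 1 h and 40.9 at CHO 6 h, against 34.2, 34.4, 41.1 and 37.97 on the CHO arrays before PHx. The early arrays lay above all those before PHx for miR-10a-5p and among them for miR-10b. Over the CHO mean before PHx, miR-10a-5p was 1.06-fold at 1 h and 1.05-fold at 6 h, and miR-10b was 1.05-fold at 1 h and 1.11-fold at 6 h. The sign of these small differences depended on the scaling: at 6 h the log2 difference was 0.07 for miR-10a-5p and 0.15 for miR-10b, and -0.16 and -0.08 for them when the percentile was taken over all probes, which put the median of all tested miRNAs at -0.19. A second miR-10a-5p probe was 1.11-fold at 1 h and 1.06-fold at 6 h over the same pool, and a second miR-10b probe was not detected on any array. The miR-196 differences kept their sign under every scaling run. As scaled here, the median of all tested miRNAs differed by -0.03 at 1 h and 0.03 at 6 h on the log2 scale.

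**Figure D1:**
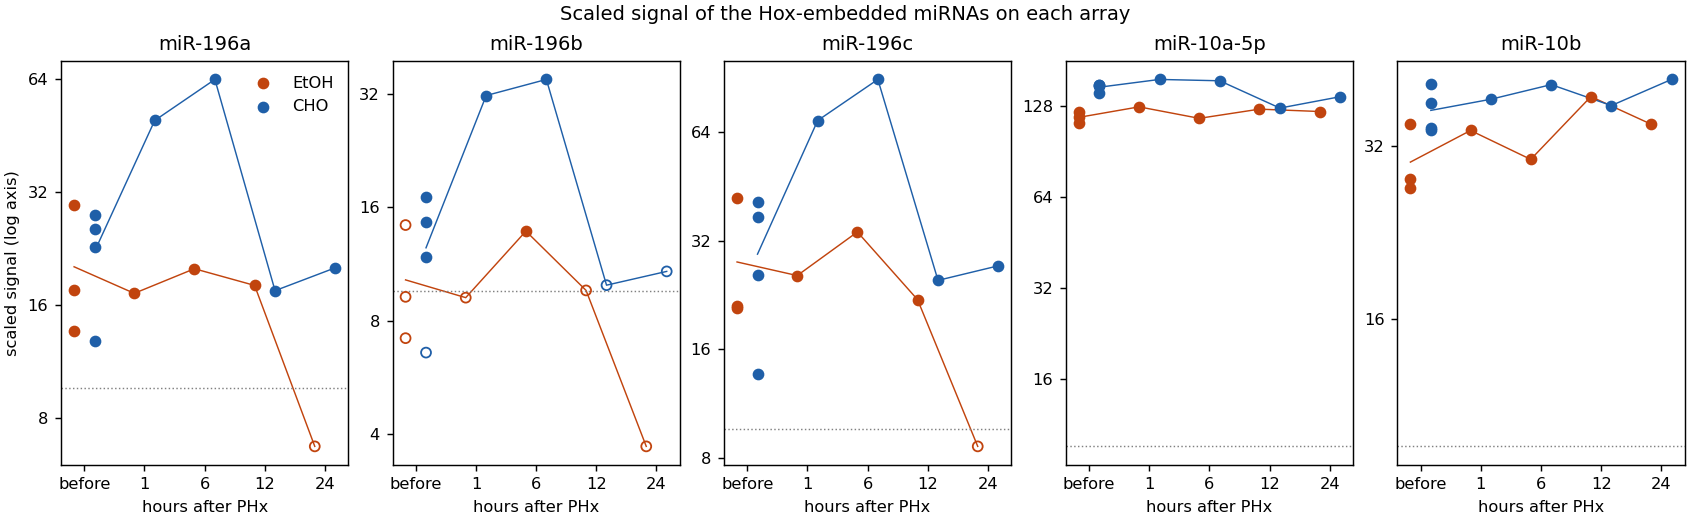
Scaled signal (log axis) of each member on each array, by hours after PHx, with EtOH and CHO side by side; lines join the mean before PHx to the lone arrays after it, open circles are arrays where the probe was not well above background, and the dotted line is the floor of 9.61. The CHO arrays at 1 h and 6 h stand above the rest for the 3 miR-196 members, and the miR-10 panels are close to flat.

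In EtOH livers the early arrays did not stand apart from the range before PHx, whose upper end was replicate 3 for each miR-196 member. Against the other 2 EtOH arrays before PHx, miR-196c was higher at 1 h and 6 h, and miR-196a at 6 h alone. Those 2 arrays share a slide with the early arrays, and replicate 3 does not. The EtOH miR-196c series had 21.0, 20.8 and 42.0 before PHx, then 25.6 at 1 h, 33.8 at 6 h, 22.0 at 12 h and 8.62 at 24 h. The EtOH miR-196a series had 17.5, 13.7 and 29.5 before PHx, then 17.2 at 1 h, 19.99 at 6 h, 18.0 at 12 h and 6.72 at 24 h. For both, the arrays at 1, 6 and 12 h lay within the range before PHx, and the 24 h array lay below it. MiR-196b was not well above background on the EtOH arrays before PHx, with 9.27, 7.20 and 14.4, nor at 1 h with 9.22, at 12 h with 9.64 or at 24 h with 3.72. It was detected in EtOH livers at 6 h alone, with 13.8, which lay below the highest of the 3 arrays before PHx.

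The EtOH change at 1 h and at 6 h was tested with limma in a model of 10 cells of diet and time, adjusted by Benjamini-Hochberg over the 134 miRNAs. None of the 5 members passed at 1 h, where 0% of all tested miRNAs did, 3 had an unadjusted p under 0.05, and the lowest unadjusted member p was 0.173. None passed at 6 h either, where 1.49% did. The log2 change of miR-196c was -0.04 ± 0.680 at 1 h and 0.36 ± 0.680 at 6 h (SE), with adjusted p of 1 and 0.879 in limma. For miR-196a it was -0.16 ± 0.542 at 1 h and 0.06 ± 0.542 at 6 h, with adjusted p of 0.958 and 0.975. For miR-10a-5p it was 0.12 ± 0.0756 at 1 h and -0.01 ± 0.0756 at 6 h, with adjusted p of 0.951 and 0.962. The standard error in these tests was 0.361 to 0.680 for the miR-196 members, so that only large EtOH changes of miR-196 could be detected, and these results do not show that EtOH livers lacked one.

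**Figure D2:**
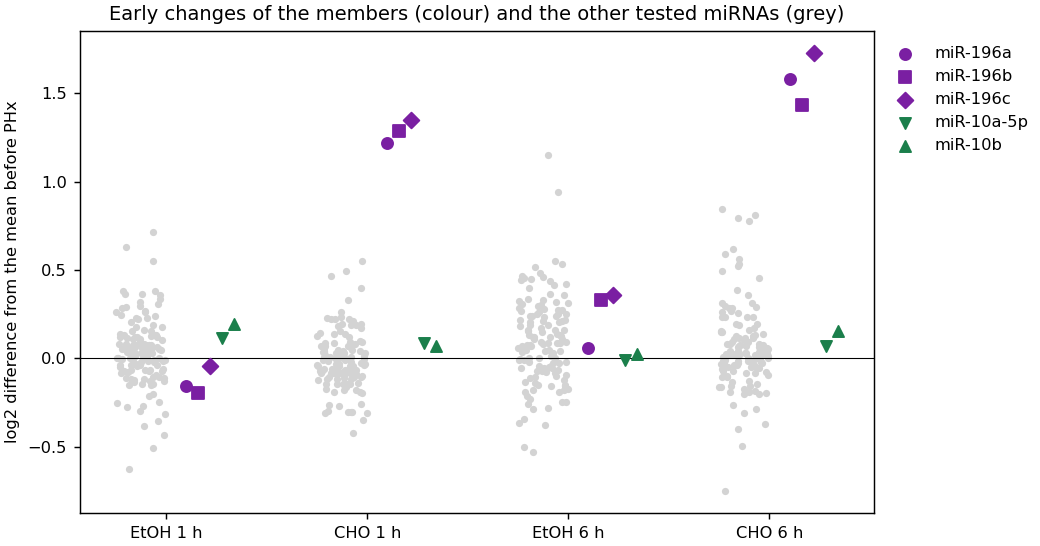
Log2 difference from the diet's own mean before PHx for the 134 tested miRNAs at 1 h and 6 h, with miR-196 in purple, miR-10 in green and the other miRNAs in grey. The miR-196 members lie above the rest in CHO livers, at 1.22 to 1.35 at 1 h and 1.43 to 1.73 at 6 h. They lie among the rest in EtOH livers, where the mean before PHx includes replicate 3, the array before PHx with the highest miR-196 values. The sign of the small CHO miR-10 values at 6 h depended on the scaling.

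Within pools of the same animals, the EtOH 6 h pool also had more miR-196a and miR-196c than before PHx, by less than the CHO pool. The log2 difference at 6 h was 0.55 in the EtOH pool and 1.20 in the CHO pool for miR-196a, and 0.70 in the EtOH pool and 1.13 in the CHO pool for miR-196c. At 1 h it was -0.03 in the EtOH pool and 0.96 in the CHO pool for miR-196a, and 0.28 in the EtOH pool and 0.89 in the CHO pool for miR-196c. MiR-196b was not well above background on the EtOH arrays before PHx, and those of the 1 h and 6 h pools were set to the floor. Its EtOH differences are therefore not given. In the 6 h pools it had 13.8 after and 7.20 before PHx in EtOH livers, and 34.9 after and 17.02 before PHx in CHO livers. Its CHO difference was 1.12 at 1 h and 1.04 at 6 h. The same differences for miR-10a-5p lay between 0.05 and 0.11 over these 4 pools, and for miR-10b between 0.17 and 0.28. These pool differences are descriptions, and the difference between diets was not tested, since the early CHO values chose the members.

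**Figure D3:**
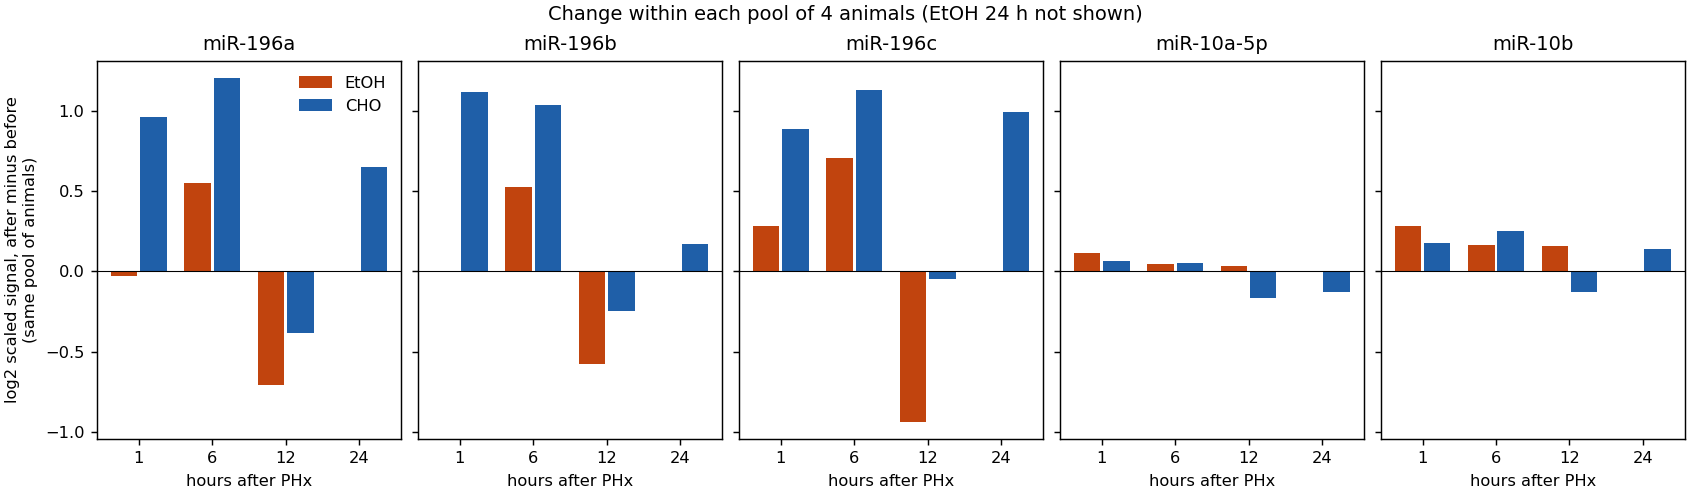
Log2 difference in scaled signal between the arrays after and before PHx of the same 4 animals, for EtOH (left bar) and CHO (right bar) at each time. The CHO bars of miR-196a and miR-196c exceed the EtOH bars at 1 h and 6 h; miR-196b was not well above background on any EtOH array before PHx, so its EtOH bars are set by the floor of 9.61 or by background, and the EtOH 24 h pool is not shown.

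At 12 h and 24 h the CHO signal of miR-196 lay within the range of the 4 CHO arrays before PHx. MiR-196c had 22.0 in EtOH and 24.8 in CHO at 12 h, and 8.62 in EtOH and 27.3 in CHO at 24 h. MiR-196a had 18.0 in EtOH and 17.5 in CHO at 12 h, and 6.72 in EtOH and 20.1 in CHO at 24 h. At 12 h the diets were close, and at 24 h the EtOH array was the lowest of all 15 for each miR-196 member. On it miR-196a was at least 1.996-fold lower and miR-196c at least 2.74-fold lower than the EtOH mean before PHx. Such a bound sets the mean before PHx against the higher of the probe's own signal and the dimmest detected signal on the array. In EtOH at 24 h, 22.4% of tested miRNAs lay below all EtOH arrays before PHx. MiR-196b was not well above background in either diet at 12 h or 24 h, with 9.95 at 12 h and 10.8 at 24 h in CHO livers. As 1 of the 4 CHO arrays before PHx and all 3 EtOH arrays before PHx were not well above background either, no fold is given. Against the same animals the picture differed between pools. The CHO 24 h pool was above its own array before PHx, by 0.99 on the log2 scale (1.99-fold) for miR-196c and 0.65 (1.57-fold) for miR-196a. That array held 13.7 for miR-196c and 12.8 for miR-196a, the lowest of the 4 CHO arrays before PHx. At 12 h the log2 difference was -0.93 in the EtOH pool and -0.05 in the CHO pool for miR-196c, and -0.71 in the EtOH pool and -0.38 in the CHO pool for miR-196a. The EtOH 12 h pool is the one whose array before PHx was EtOH replicate 3. These same-pool values have 1 pool each and no test.

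Against the arrays before PHx and averaged over the diets, none of the 5 members passed limma's test at 12 h or 24 h, where 5.97% and 13.4% of the 134 miRNAs passed. At 12 h the log2 changes were -0.19 ± 0.370 for miR-196a, -0.28 ± 0.315 for miR-196b and -0.19 ± 0.408 for miR-196c (SE). At 24 h they were -0.54 ± 0.370 for miR-196a, -0.23 ± 0.315 for miR-196b and -0.72 ± 0.408 for miR-196c. The adjusted p of the 5 members lay between 0.449 and 0.831 at 12 h and between 0.356 and 0.969 at 24 h. The error of this model takes in the early CHO values, so it is not the spread between pools alone. With the pool of animals as a block, 3 miRNAs passed at 12 h and 0 at 24 h (18 at an unadjusted p under 0.05), again no member.

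MiR-10 after 6 h differed by little. MiR-10a-5p had 125.0 in EtOH and 126.0 in CHO at 12 h, and 122.7 in EtOH and 137.3 in CHO at 24 h. Both CHO values lay below all 4 CHO arrays before PHx, as did 22.4% of tested miRNAs at 12 h and 17.9% at 24 h. Both EtOH values lay above all 3 EtOH arrays before PHx, which had 112.7 to 121.9. The share of tested miRNAs above them is not given here. MiR-10b had 39.0 in EtOH and 37.6 in CHO at 12 h, and 34.9 in EtOH and 41.8 in CHO at 24 h. The log2 changes averaged over the diets were -0.07 ± 0.0824 at 12 h and -0.02 ± 0.0824 at 24 h for miR-10a-5p, and 0.21 ± 0.120 at both times for miR-10b, none of which passed.

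Before PHx, miR-10a-5p was the 1 member that differed between the diets. It had 117.5, 112.7 and 121.9 in EtOH livers, against 150.1, 149.3, 141.1 and 150.1 in CHO livers. Every EtOH pool lay below every CHO pool, as was the case for 21.6% of the 134 tested miRNAs. The mean was 117 ± 4.60 in EtOH livers (SD, n = 3) and 148 ± 4.38 in CHO livers (SD, n = 4), which is a log2 difference of -0.33 (SE 0.0783, adjusted p of 0.0152 in limma). The CHO arrays before PHx were also the baseline of the early CHO values that chose the members. Of all tested miRNAs 15.7% passed this test, and 12.7% passed as lower in EtOH livers. The call was lost when the percentile was taken over all probes (-0.27, adjusted p of 0.242 in limma) and with quantile normalization (-0.23, 0.265). It was lost when a probe had to have all its spots above background (-0.22, 0.133) and without EtOH before PHx replicate 2 (limma's adjusted p of 0.0548). Normexp background correction, whose fit failed on 2 arrays, also lost it (0.01, 0.972). So did the set of animals as a replicate block, described at the end. Within slide 2 alone, with 1 EtOH array before PHx, the difference was -0.26.

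MiR-10b pointed the same way without passing. It had 28.1, 27.0 and 35.0 in EtOH livers, against 34.2, 34.4, 41.1 and 37.97 in CHO livers before PHx, so the groups overlapped through EtOH replicate 3. In limma the diets differed by -0.30 ± 0.114 (log2, SE), and the adjusted p was 0.0937. Without that replicate the difference was -0.42 with limma's adjusted p of 0.0234, the 1 case to pass among 15 arrays left out in turn. Over those 15 cases the difference lay between -0.42 and -0.23, with limma's adjusted p up to 0.232.

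**Figure D4:**
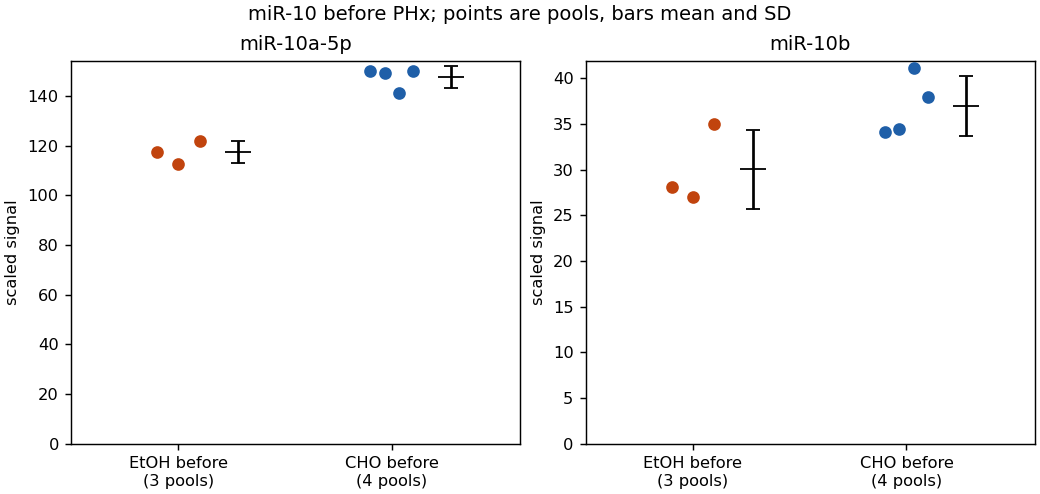
Scaled signal of miR-10a-5p and miR-10b before PHx in the 3 EtOH pools and the 4 CHO pools, with mean and SD; both axes start at 0. The miR-10a-5p groups do not overlap (112.7 to 121.9 in EtOH, 141.1 to 150.1 in CHO), and the miR-10b groups do.

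The miR-196 members did not pass before PHx, with log2 differences of -0.15 ± 0.352 for miR-196a, -0.24 ± 0.300 for miR-196b and -0.04 ± 0.388 for miR-196c (SE), and adjusted p of 0.641 to 0.992 in limma. The miR-196b value sets CHO arrays against EtOH arrays that were not well above background. The error of this model also takes in the early CHO values. The 2 slides gave opposite signs. On slide 1, which held the 1 h and 6 h sets, miR-196c had 21.0 and 20.8 in EtOH livers, against 37.2 and 40.9 in CHO livers before PHx. On slide 2, which held the 12 h and 24 h sets, it had 42.0 in the 1 EtOH pool, against 25.7 and 13.7 in the CHO pools. A fit on slide 1 alone had 2 pools of each diet before PHx, and the 2 pools of a diet shared 1 animal. Its error also takes in the early CHO values that chose the members. In that fit all 5 members were lower in EtOH livers, with limma's adjusted p of 0.00248 to 0.0395. They were among 25 of the 134 miRNAs that were lower, and 12 were higher. There the log2 difference was -0.78 for miR-196a, -0.90 for miR-196c, -0.38 for miR-10a-5p and -0.32 for miR-10b. MiR-196b had 9.27 and 7.20 in EtOH livers, not well above background and set to the floor in the fit, against 14.6 and 17.02 in CHO livers, so its size there is not given. On slide 2 the difference was 0.79 for miR-196a, 1.16 for miR-196c, -0.26 for miR-10a-5p and -0.18 for miR-10b, and no member passed. The single EtOH array on slide 2 before PHx was replicate 3, the array with the lowest signal, and slide and set of animals cannot be told apart.

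The 2 families differed in how much pools of the same group varied. Over the 4 CHO pools before PHx, the SD on the log2 scale was 0.72 for miR-196c and 0.50 for miR-196a, which ranked 1 and 2 among the 134 tested miRNAs. It was 0.36 for miR-196b, with 1 of the 4 arrays set to the floor. It was 0.04 for miR-10a-5p and 0.13 for miR-10b, ranking 123 and 61, against a median of 0.12 over all tested miRNAs. Over the 3 EtOH pools it was 0.58 for miR-196c and 0.57 for miR-196a, against 0.06 for miR-10a-5p and 0.20 for miR-10b and a median of 0.18. The CHO pools also split by slide, with 37.2 and 40.9 for miR-196c on slide 1 and 25.7 and 13.7 on slide 2, so that differences between animals and between slides cannot be told apart here.

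Across all 15 arrays the miR-196 members followed each other. Pearson's r of log2 signal was 0.972 between miR-196a and miR-196c, 0.929 between miR-196a and miR-196b, and 0.889 between miR-196b and miR-196c. It was 0.657 between miR-10a-5p and miR-10b, and 0.243 to 0.645 between a miR-196 and a miR-10 member. Arrays share slides and animals, so these are descriptions. After its family, the miRNAs most like miR-196c were miR-500 (0.855), miR-92a (0.713) and miR-181a (0.707). Without the CHO 1 h and 6 h arrays, r with miR-196c was 0.948 for miR-196a, 0.784 for miR-196b, 0.765 for miR-500, 0.628 for miR-92a and 0.755 for miR-181a. These miRNAs were picked by r over all 15 arrays. Of the next in rank, miR-146a fell from 0.607 to 0.325 and miR-335 from 0.586 to -0.419 without the early CHO arrays. What carried the likeness was not tested. MiR-500 differed from its CHO mean before PHx by 0.33 at 1 h and 0.59 at 6 h on the log2 scale. Most like miR-10a-5p were miR-322 (0.795), miR-143 (0.787), miR-126 (0.753), miR-200a (0.751) and miR-19b (0.740), and miR-10b was not among these 5.

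The relatives of miR-10 by sequence, a list chosen with earlier results known, had 6 tested members of 7 on the array. Before PHx, 3 of the 6 passed limma's test as lower in EtOH livers and 0 as higher, where 12.7% of all tested miRNAs passed as lower and 2.99% as higher. The median log2 difference of the 6 was -0.25, against -0.08 over all tested miRNAs. MiR-99a had 301 to 416 in EtOH livers and 473 to 531 in CHO livers, with a log2 difference of -0.44 and an SE of 0.104 (adjusted p of 0.0152 in limma). MiR-125b-5p had a log2 difference of -0.39 ± 0.0849 (adjusted p of 0.0152) and miR-100 one of -0.39 ± 0.0952 (adjusted p of 0.0167). Under other settings between 0 and 76 of all tested miRNAs passed this comparison, against 21 here. How these 3 calls fared under each setting is not given. None of the 6 passed at 12 h, at 24 h or in EtOH at 1 h or 6 h. Of the let-7 family, whose seed shares most of its letters with that of miR-196, 0 of 8 passed in any of the 5 comparisons. The other strands of the Hox-embedded hairpins were on the array as miR-10a-3p and miR-196a*, and neither was detected on any array.

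Markers of other cell types were read on the early CHO arrays, since Hox-embedded miRNAs are expressed unevenly over tissues. The summed signal of 5 stellate and mesenchymal markers was 689 at CHO 1 h and 619 at CHO 6 h, against 617 to 668 in CHO livers before PHx. That of the leukocyte markers was 334 at CHO 1 h and 441 at CHO 6 h, against 320 to 365 before PHx, and miR-223, a myeloid miRNA, had 63.1 at 1 h and 114 at 6 h against 60.6 to 77.3. At CHO 6 h miR-146a had 226, against 160 to 187 before PHx, whereas miR-142-3p with 27.7 and miR-150 with 73.0 lay within their ranges before PHx. Endothelial markers summed to 1293 and 1218 at these times, against 1210 to 1300 before PHx, and hepatocyte markers to 36651 and 39605, against 36154 to 42878. Biliary markers summed to 76.1 at CHO 1 h and 53.1 at CHO 6 h, against 58.4 to 83.0 before PHx, and erythroid markers to 707 and 519, against 611 to 1230. MiR-203, of squamous epithelium, had 24.1 at CHO 1 h and 22.7 at CHO 6 h, against 27.7 to 36.2 before PHx. At CHO 1 h the stellate sum lay above its whole range before PHx, through miR-143 with 467 against 390 to 431. The other stellate markers lay within their ranges before PHx, and miR-203 lay below its own. At CHO 6 h the leukocyte sum lay above its range, through 2 of its 4 detected members. The erythroid and biliary sums and miR-203 lay below theirs at that time. Of all tested miRNAs, 20.9% lay above every CHO array before PHx at CHO 1 h and 27.6% at CHO 6 h. The share below them at these times is not given here, and was 22.4% at CHO 12 h and 17.9% at CHO 24 h. The part of these cell types in the miR-196 values was not tested. The 6 muscle and 3 pancreas markers, as well as miR-205, miR-200c, miR-141, miR-142-5p, miR-124, miR-9 and miR-222, were not detected on any array.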

How the data were processed

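Spot intensity was deposited as linear scanner output with local background already subtracted by Agilent Feature Extraction, per the file headers in version 10.5.1.1, while the submitters' processing notes name 10.7.3.1. The processed and background-subtracted intensity differed by a relative 5.00e-06 at most. The authors' deposited table holds log2 values per miRNA, with scale, centring and method not given in the sources used here. Column medians ran between 0.106 and 1.10. The table followed the software's total signal with a rank correlation of 0.930 to 0.967 within arrays, and served as an alternative.

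Of 105000 spots, 2503 (2.38%) marked as non-uniform or population outliers were left out. Spots were averaged per probe, scaled, floored at 9.61 and put on the log2 scale. Each miRNA was represented by its brightest probe on average. A probe was detected where a share of at least 0.5 of its spots was well above background, and miRNAs detected on at least 3 arrays were tested, which left 216 untested. Tests used limma 3.58.1 (lmFit, eBayes) in R 4.3.3 on all 15 arrays, with an adjusted p under 0.05 as a call. The diet difference before PHx and the changes at 12 h and 24 h came from a model with 1 diet term for arrays before PHx, another for arrays after it, and a term per time, with 8 residual degrees of freedom. The EtOH changes at 1 h and 6 h came from 10 cells with 5 residual degrees of freedom, which assumes that the lone pools vary like the pools before PHx. P-values of the 10 cells rest on the spread between pools before PHx. Those of the other model rest on that spread and on how the diet difference varied over the lone arrays after PHx. The early CHO values that chose the members are part of the latter. Arrays before and after PHx of the same animals were treated as independent in both models, and the number of arrays limits the precision. The fit was tested on simulated data.

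Arrays before and after PHx are paired by the labels' animal identifiers. Groups after PHx hold 1 array, so no correlation of deviations could be had there. The numbers shared between the diets were not taken as pairs. The files hold no spot mean, so the normexp alternative used spot medians. The members, lists and naming rule were chosen with earlier results of these data known. The rule named the 5 members, up to 4 examples per list and the 5 miRNAs most like miR-196c and miR-10a-5p. MiR-466b, miR-872 and miR-335 were named after their values were seen. So were miR-223, miR-143, miR-203, miR-126*, miR-192, miR-194 and miR-214 as single markers.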

Additional observations from a re-analysis of the deposited data

Results flagged for a closer look

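Among the 4 CHO pools before PHx, the miR-10a-5p signal of replicate 3 lay apart from the other pools (141.1 against 149.3 to 150.1). Its gap to the nearest pool was 0.914 of the group's whole range, above the critical value of Dixon's test. That test marks some groups by chance.

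Between arrays of the same animals, the diets moved in opposite directions in 3 cases, each with 1 pool per diet and no test of the difference. MiR-196a at 1 h differed from its level before PHx by -0.0285 on the log2 scale in the EtOH pool and by 0.96 in the CHO pool. MiR-10a-5p at 12 h differed by 0.0355 in the EtOH pool and by -0.16 in the CHO pool. MiR-10b at 12 h differed by 0.16 in the EtOH pool and by -0.13 in the CHO pool.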

How the results depend on the processing

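No member passed at 12 h, at 24 h or in EtOH at 1 h or 6 h under any setting run. Causes were not tested unless named. For the diet difference before PHx, 21 miRNAs were called, against 2 with the percentile over all probes, 9 with quantile normalization, 76 without scaling, 13 without the filter on dim miRNAs, 6 when all spots had to be above background, 0 with normexp (2 at an unadjusted p under 0.05), 37 within slide 1 and 1 within slide 2. The median diet difference of all tested miRNAs was -0.08 as reported and -0.53 without scaling. Of the 5 members 1 was called, against 0 with the percentile over all probes, quantile normalization, all spots above background, normexp or slide 2, 2 with total signal per miRNA, 3 without scaling and 5 within slide 1. At 12 h, 8 miRNAs were called, against 3 with the percentile over all probes, 13 with total signal or with 10 cells, 0 with normexp (1 unadjusted) and 3 with the pool as replicate block. At 24 h, 18 were called, against 11 with the percentile over all probes or without the filter, 6 without scaling, 0 with normexp (19 unadjusted), 9 within slide 2 and 0 with the pool block. In EtOH, 0 were called at 1 h (1 with quantile normalization) and 2 at 6 h, against 1 with the mean over probes and 0 with the percentile over all probes, no scaling, the authors' values, total signal, all spots above background, normexp, slide as a block or slide 1.

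Normexp gave fitted background means of -72.7 on EtOH before PHx replicate 3 and -578 on CHO 24 h, so it could not be used on those arrays, and its offset of 50 shrinks dim differences by construction. Under it the diet differences before PHx were 0.52 for miR-196a, 0.62 for miR-196b, 0.47 for miR-196c, 0.0113 for miR-10a-5p and 0.37 for miR-10b. The CHO differences from before PHx were 0.45 (miR-196a), 0.35 (miR-196b) and 0.58 (miR-196c) at 1 h, and 0.69, 0.53 and 0.82 for them at 6 h. The miR-196c diet difference was 0.0245 with the percentile over all probes, 0.0727 with all spots above background and 1.16 within slide 2, where miR-196a gave 0.79 and miR-196b 0.43. At CHO 6 h miR-196b was 1.04 against its own pool.

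With arrays left out in turn, 14 to 34 miRNAs were called for diet before PHx (34 without EtOH before PHx replicate 3), 8 to 12 at 12 h, 11 to 21 at 24 h (11 without EtOH 24 h), 0 in EtOH at 1 h and 0 to 3 at 6 h (0 without EtOH before PHx replicate 2 or CHO before PHx replicate 1). Between 0 and 2 members were called for diet before PHx (0 without EtOH replicate 2, 2 without EtOH replicate 3). The diet difference lay between -0.36 and -0.30 for miR-10a-5p, -0.42 and -0.23 for miR-10b, -0.46 and 0.0926 for miR-196a, and -0.37 and 0.16 for miR-196c. CHO differences lay between 0.97 and 1.34 (miR-196a), 1.15 and 1.42 (miR-196b) and 1.02 and 1.55 (miR-196c) at 1 h, and between 1.34 and 1.71, 1.29 and 1.56, and 1.40 and 1.93 for them at 6 h.

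EtOH and CHO arrays with the same set number were not treated as pairs in the main fit. Their deviations from the group means correlated at -0.10, -0.13 and 0.17 for the 1, 6 and 12 h sets. With so few arrays behind each mean, these values cannot show that pairing was absent. With the set as a replicate block, 0 members were called and miR-10a-5p had -0.32 with an adjusted p of 0.0564 in limma. The EtOH changes at 1 h and 6 h could not be fitted with the pool as a block, since no residual degrees of freedom remain. The lone EtOH arrays at 1 h and 6 h were not left out of their own contrasts, and slides without both groups gave no value.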
